A study of Mus musculus with 16 samples.

Results

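Semaphorins, plexins and neuropilins are the ligands, receptors and coreceptors of one signalling system. All entries of the deposited count table with the symbol of a semaphorin of classes 3 to 7, a plexin A, B, C or D, or neuropilin 1 or 2 were taken, which gave 31 of 24421 entries. They comprised 20 semaphorins, 9 plexins and 2 neuropilins. Of the 31 genes, 29 had enough counts to be tested. Sema3e, the secreted ligand of plexin D1, and Sema4g, a transmembrane semaphorin, did not pass that filter.

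Polyadenylated RNA from mouse ventricles was sequenced in 16 libraries. The 4 groups of 4 libraries were JP2CR TAC, JP2CR sham, WT TAC and WT sham. JP2CR mice were homozygous for a Jph2 knock-in allele without codons 563 to 568, described as calpain-resistant, and WT mice were their wildtype littermates. Junctophilin-2, the product of Jph2, is the tether between the transverse tubules of cardiomyocytes and their calcium store. All mice were C57BL/6N, labelled male, and 9 to 10 weeks old when they underwent transverse aortic constriction (TAC), a surgical model of pressure overload, or a sham operation. The labels name no cell type or promoter for the deletion, and tissue was taken 5 weeks after surgery. The design asks how pressure overload changes transcript levels in each genotype, and whether the change differs between the genotypes.

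Class 3 semaphorins are secreted and mostly bind a neuropilin, which forms a receptor complex with a plexin A or plexin D1. Semaphorins of classes 4, 5 and 6 span the membrane and bind plexins directly, and Sema7a is held in the membrane by a lipid anchor. Plexins carry a GTPase-activating domain inside the cell and change the cytoskeleton and cell adhesion. The family was first described as guidance cues for growing axons, and in the mouse heart it takes part in the patterning of vessels, the outflow tract and sympathetic nerves.

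Promoters are shown for the plexins and the semaphorin with the clearest TAC responses among the members that had one in the RefSeq promoter table: Plxnb1, Plxnb3 and Sema6c, which fell in both genotypes, and Plxna2, which rose in both and differed between the genotypes after TAC. Each is 300 bases, from 250 before to 50 after a RefSeq transcript start, on GRCm38.p6. Capitals mark matches to GGGCGG (the GC box) and CATTCC (the MCAT motif), searched on both strands.
Plxnb1, chr9:109095186-109095485, plus strand: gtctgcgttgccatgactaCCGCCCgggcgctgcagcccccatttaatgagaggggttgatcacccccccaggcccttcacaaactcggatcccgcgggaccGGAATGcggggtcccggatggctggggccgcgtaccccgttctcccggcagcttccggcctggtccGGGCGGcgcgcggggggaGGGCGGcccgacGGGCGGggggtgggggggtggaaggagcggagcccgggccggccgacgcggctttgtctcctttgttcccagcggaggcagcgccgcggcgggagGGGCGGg
Plxnb3, chrX:73756853-73757152, plus strand: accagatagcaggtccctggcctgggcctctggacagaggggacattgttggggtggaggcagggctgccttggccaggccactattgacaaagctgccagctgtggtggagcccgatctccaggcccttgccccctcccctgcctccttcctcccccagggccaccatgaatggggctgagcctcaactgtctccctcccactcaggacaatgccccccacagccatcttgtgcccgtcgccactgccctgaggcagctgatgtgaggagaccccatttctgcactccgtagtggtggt
Sema6c, chr3:95160170-95160469, plus strand: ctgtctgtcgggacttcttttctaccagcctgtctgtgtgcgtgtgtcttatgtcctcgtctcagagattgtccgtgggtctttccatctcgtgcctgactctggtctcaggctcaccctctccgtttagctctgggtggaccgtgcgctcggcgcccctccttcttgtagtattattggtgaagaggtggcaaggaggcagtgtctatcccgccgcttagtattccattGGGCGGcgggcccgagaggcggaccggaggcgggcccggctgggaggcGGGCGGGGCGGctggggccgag
Plxna2, chr1:194619579-194619878, plus strand: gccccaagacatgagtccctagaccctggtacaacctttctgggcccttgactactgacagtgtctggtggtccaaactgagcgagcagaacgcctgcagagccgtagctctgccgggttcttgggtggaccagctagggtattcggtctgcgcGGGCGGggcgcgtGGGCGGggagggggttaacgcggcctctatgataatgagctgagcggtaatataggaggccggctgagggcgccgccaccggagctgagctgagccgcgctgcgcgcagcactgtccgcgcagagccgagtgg

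The Plxnb1 promoter held 5 GC boxes and 1 MCAT motif, the Sema6c promoter shown 3 GC boxes, of which 2 overlap, and that of Plxna2 2 GC boxes. Another Sema6c promoter, chr3:95164089-95164388, is not shown and held 0 GC boxes and 0 MCAT motifs. Plxnb3 had a match to neither motif in this window. Member promoters on chromosome 18, where Sema6a lies, were not used, and the shares over all promoters were not restricted in this way. This gave 37 promoters of 26 members. Plxna1, Plxna4, Sema3b, Sema3f and Sema6a were not among them. A GC box occurred in 27 of these 37, against 35.7% of all 32851 promoters of the same length, and the median GC content was 63.7%, against 52.7% over all. The MCAT motif occurred in 3 of 37 (14.7% of all promoters), the AP-1 site TGANTCA in 3 (7.81%) and the E-box CACGTG in 3 (7.15%). The letters AGATAA, a site of GATA factors, were found in 0 of 37, against 11.2% of all promoters. The letters of the TATA box, TATAAA, were also found in 0 of 37, against 13.6% of all. A CArG box was found in 1 Sema4d promoter (1.63% of all) and a MEF2 site in 1 Sema6d promoter (3.19%). These matches describe the letters of the windows only.

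Total counts ran from 9966782 to 16609732 per library, and the 31 genes took 0.138% to 0.167% of them. Levels are given as CPM, the usual depth-scaled counts, with library totals adjusted by TMM factors. A floor of 3 counts corresponded to 0.181 to 0.301 CPM and covers counting error only. Jph2 itself was at 589 to 750.0 CPM in the 16 libraries, which does not check the genotype because only codons 563 to 568 are missing. The libraries are bulk tissue, so fewer cells of a type and less RNA per cell cannot be told apart. Nothing ties the libraries to named animals, and p-values measure the spread between libraries.

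Some libraries stood apart. JP2CR sham 3 and 4 had 189 and 196 CPM of Xist, the RNA of the inactive X chromosome, and 0 counts of Y-linked genes, against their male label. JP2CR TAC 4 carried both, with Xist at 140.5 CPM and Y-linked genes at 118 CPM. The other 13 libraries had at most 0.266 CPM of Xist and 179 to 237 CPM of Y-linked genes. Plxna3 and Plxnb3 lie on the X chromosome. WT TAC 3 lay between replicates 1 and 2 of its group for 91.9% of the 3376 genes that differed between those replicates, and JP2CR TAC 3 for 91.7% of 3081. The same share was 75.5% for WT TAC 4, 65.0% for JP2CR TAC 4, 84.0% and 77.6% of 2041 genes for WT sham 3 and 4, and 27.8% and 32.7% of 352 genes for JP2CR sham 3 and 4. No expected share for independent libraries was worked out, and independence of replicates 3 and 4 from replicates 1 and 2 was not tested. The p-values and SDs treat the 4 libraries of a group as independent. The pair with the highest shares, WT TAC 3 and JP2CR TAC 3, was also left out, alone and together with the libraries with Xist. WT sham 3, WT sham 4 and WT TAC 4 were left out only 1 at a time, so they stay in the fits without those libraries. WT sham 3 also lay between replicates 1 and 2 in summed atrial markers without Nppa, at 2018 CPM beside 1538 and 2494 CPM.

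Scaled to exon length, the receptors led the family. Plxnb2, a receptor of class 4 semaphorins, had the highest level in WT sham ventricles, 31.7 ± 1.88 CPM per kb of exon (SD, n = 4). It was followed by Plxnd1, the receptor of Sema3e in endothelial cells, at 29.6 ± 1.6 and Nrp1, coreceptor of class 3 semaphorins and of VEGF, at 24.6 ± 1.05 CPM per kb. The WT sham libraries of Plxnb2 and Plxnd1 overlapped, and those of Plxnd1 lay apart from those of Nrp1. Sema7a was the highest ligand at 15.5 ± 0.579 CPM per kb, ahead of Plxnb1 at 13.04 ± 0.431 and of the secreted Sema3b at 10.8 ± 0.623. Sema3a, a class 3 ligand that binds Nrp1 and is known from mouse hearts for sympathetic patterning, was at 0.179 ± 0.0324 CPM per kb. Sema3e and Sema4g were lowest, at 0.0701 ± 0.0337 and 0.0358 ± 0.0208 CPM per kb, with 1 to 12 and 1 to 14 counts per library. Of the 30 pairs of neighbours in this order, 13 did not overlap across the 4 WT sham libraries and 17 did.

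**Figure D1:**
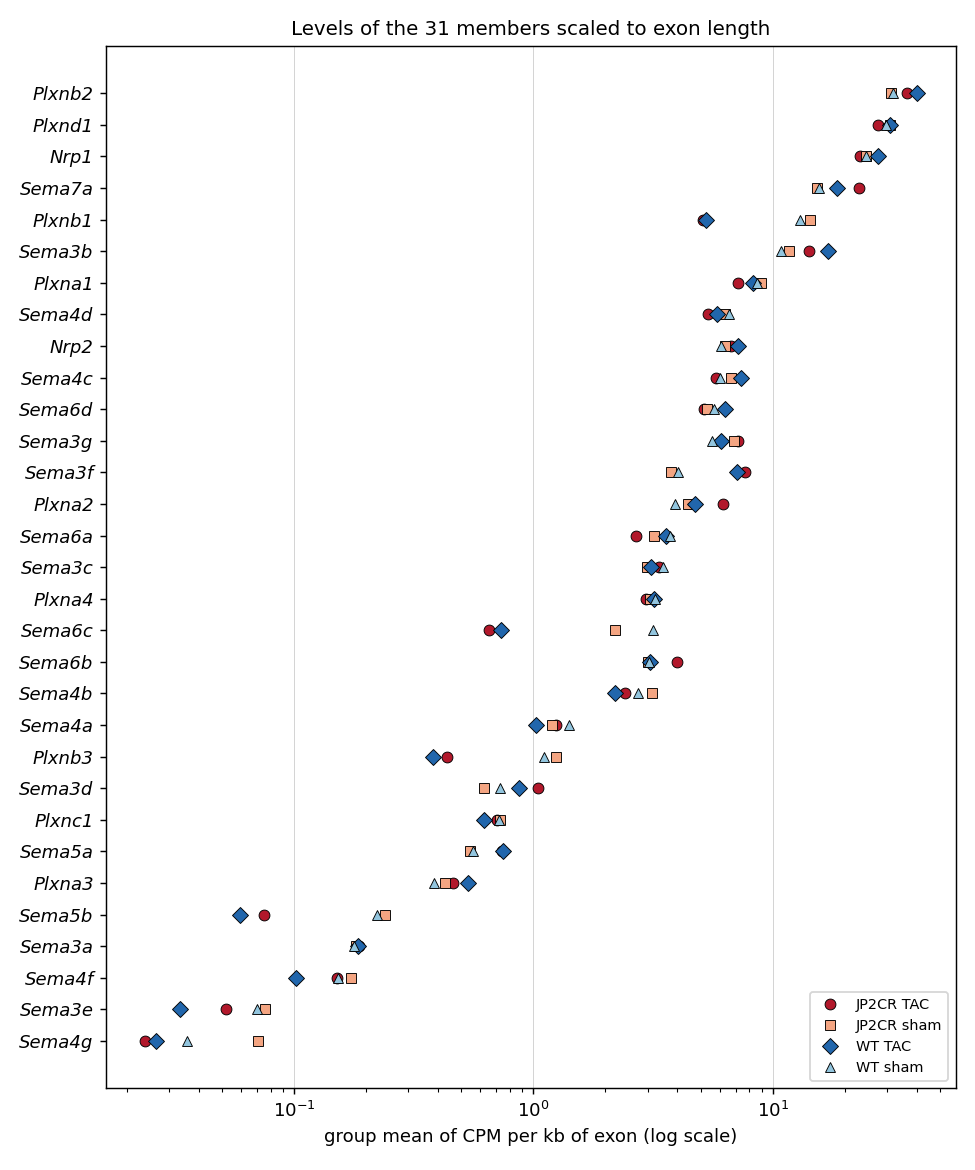
Group means of CPM per kb of exon on a log axis for the 31 genes, ordered by WT sham, with 1 symbol per group. Plxnb2, Plxnd1 and Nrp1 lead in WT sham, and the symbols of JP2CR TAC and WT TAC stand well left of both sham groups for Plxnb1, Sema6c, Plxnb3 and Sema5b.

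TAC changed the family in both genotypes, in a share near that of all genes. In JP2CR TAC against JP2CR sham 15 of 29 tested members (51.7%) had an adjusted p under 0.05 in edgeR's quasi-likelihood test, against 41.5% of all genes tested. Of these, 7 were higher and 8 lower, against 20.7% of all genes higher and 20.7% lower. In WT TAC against WT sham 13 of 29 (44.8%) passed, against 41.9% of all genes. Of these, 6 were higher, against 21.1% of all genes, and 7 lower, against 20.8%. Without the 3 libraries with Xist, 6 of the 29 were higher and 9 lower in JP2CR, and 8 higher and 8 lower in WT. Of 13740 genes in that fit, 2539 were higher and 2397 lower in JP2CR, and 3131 higher and 3162 lower in WT. Without these and WT TAC 3 and JP2CR TAC 3, 5 were higher and 9 lower in JP2CR, and 7 higher and 8 lower in WT. Of 13706 genes there, 2028 were higher and 1904 lower in JP2CR, and 2772 higher and 2678 lower in WT. Sema4g, which had enough counts in those fits, was also lower in JP2CR, with adjusted p values of 0.0127 and 0.0471. The median log2 fold change over the tested members was -0.05 in JP2CR and 0.05 in WT, beside -0.0042 and -0.00094 over all genes. The groups did not overlap for 13 of 29 members in JP2CR (34.1% of all genes) and for 13 of 29 in WT (42.0% of all genes). Members passing in both genotypes, all in the same direction, numbered 10, of which 5 were higher and 5 lower. The share of all genes passing in both was not counted, so this number has no background beside it. In the authors' deposited table, 8 members were higher and 6 lower in each genotype, and 7 and 6 of these in JP2CR and 5 and 5 in WT were called here too. The share of all genes called in the authors' table was not counted either.

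**Figure D2:**
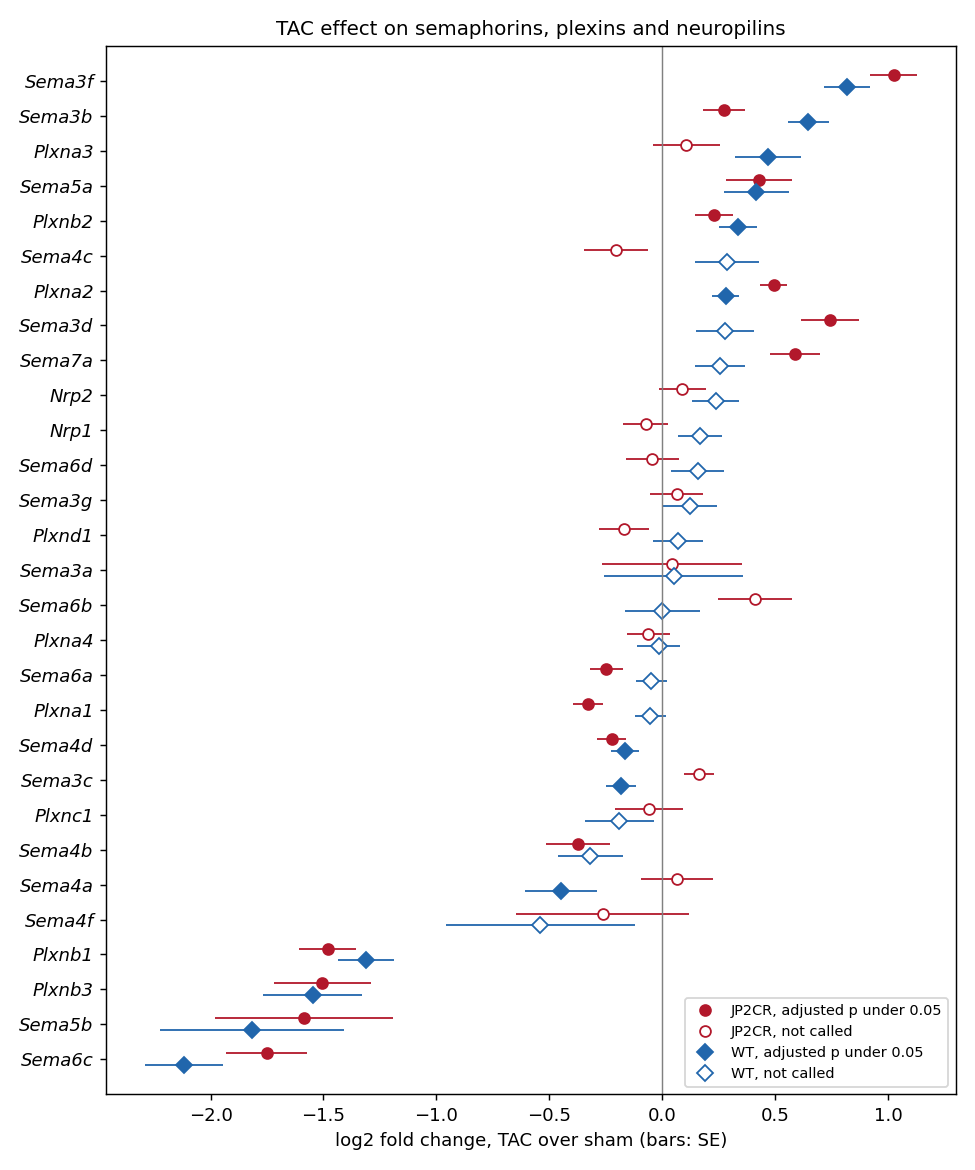
Log2 fold changes with standard errors of the 29 tested members for TAC over sham in JP2CR and in WT (n = 4 libraries per group). Sema6c, Plxnb1, Plxnb3 and Sema5b lie furthest to the left in both genotypes and Sema3f furthest to the right.

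Among the receptors, Plxnb1 and Plxnb3 fell with TAC in both genotypes, and so did the transmembrane ligands Sema6c, Sema5b and Sema4d. Plxnb1 (chr9:109095389-109119917 on GRCm38, plus strand) encodes the main receptor of Sema4d outside the immune system and activates RhoA through its exchange factors. Its levels were 37.9, 49.2, 44.1 and 65.2 CPM in JP2CR TAC and 126, 128, 128 and 168 CPM in JP2CR sham. In WT they were 49.1, 52.5, 54.1 and 45.8 CPM after TAC and 123, 123, 123 and 131 CPM after sham. Every TAC library was below every sham library in both genotypes, and JP2CR TAC 4, a library with Xist, was the TAC library nearest to sham. The same library was nearest to sham in its group for 9 of the 15 members called in JP2CR. Plxnb1 was 2.79-fold lower in JP2CR TAC (log2 fold change -1.48 ± 0.13, SE, adjusted p = 1.64e-07) and 2.48-fold lower in WT TAC (-1.31 ± 0.13, adjusted p = 3.18e-07). Of the exon length of Plxnb1, 2.68% overlaps Gm7628 on the opposite strand, and the strand setting of the counting is not given.

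Plxnb3 (chrX:73757090-73772514, plus strand), a receptor of Sema5a, is a low-level gene, with 25 to 139 counts per library. It measured 1.95, 2.26, 2.55 and 4.55 CPM in JP2CR TAC and 7.84, 8.42, 8.57 and 7.63 CPM in JP2CR sham. WT TAC libraries had 3.33, 2.19, 2.09 and 2.25 CPM, and WT sham libraries 5.45, 8.45, 7.25 and 7.62 CPM. The TAC and sham libraries did not overlap in either genotype, with JP2CR TAC 4 again the highest of its group. The fall was 2.84-fold in JP2CR (-1.51 ± 0.21, adjusted p = 2.99e-05) and 2.93-fold in WT (-1.55 ± 0.22, adjusted p = 2.36e-05). JP2CR sham 3 and 4, the libraries with Xist and no Y-linked counts, stood at 8.57 and 7.63 CPM of this X-linked gene beside 7.84 and 8.42 CPM in JP2CR sham 1 and 2.

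Sema6c (chr3:95160457-95174024, plus strand), a transmembrane semaphorin of class 6, had the largest log2 fold change of the tested members in both genotypes. Its levels were 3.14, 3.71, 3.55 and 5.15 CPM in JP2CR TAC, against 14.5, 12.3, 15.4 and 10.1 CPM in JP2CR sham. They were 5.97, 3.39, 4.36 and 3.61 CPM in WT TAC, against 16.9, 20.1, 18.0 and 19.9 CPM in WT sham. Again no TAC library reached a sham library. Sema6c was 3.37-fold lower in JP2CR TAC (-1.75 ± 0.18, adjusted p = 9.61e-07) and 4.34-fold lower in WT TAC (-2.12 ± 0.17, adjusted p = 5.58e-08). All JP2CR sham libraries were below all WT sham libraries, a difference of -0.51 ± 0.15 on the log2 scale that did not pass over all genes (adjusted p = 0.348).

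Sema5b (chr16:35541145-35664732, plus strand), a transmembrane semaphorin with thrombospondin repeats, fell at a level close to the counting floor. Its libraries held 0.823, 0.161, 0.541 and 0.602 CPM in JP2CR TAC, against 1.497, 2.01, 0.863 and 2.41 CPM in JP2CR sham. WT TAC libraries held 0.387, 0.730, 0.335 and 0.241 CPM, against 2.01, 1.43, 1.30 and 1.52 CPM in WT sham. These correspond to 2 to 24 counts per library, and the groups did not overlap in either genotype. The log2 fold change was -1.58 ± 0.39 in JP2CR (adjusted p = 0.00378) and -1.82 ± 0.41 in WT (adjusted p = 0.00162). Sema4d, a ligand of Plxnb1 and Plxnb2, fell far less. It measured 42.0, 40.2, 40.6 and 42.3 CPM in JP2CR TAC, against 47.5, 53.4, 43.8 and 48.5 CPM in JP2CR sham (-0.22 ± 0.06, adjusted p = 0.0085). In WT it measured 46.6, 42.0, 48.3 and 43.3 CPM after TAC, against 52.9, 49.0, 48.4 and 52.0 CPM after sham (-0.17 ± 0.06, adjusted p = 0.0407). The libraries of Sema4d did not overlap in either genotype, but the highest WT TAC library, 48.34 CPM, stood just under the lowest WT sham library, 48.37 CPM, and the WT call was lost in 10 of 28 other settings (adjusted p up to 0.13).

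**Figure D3:**
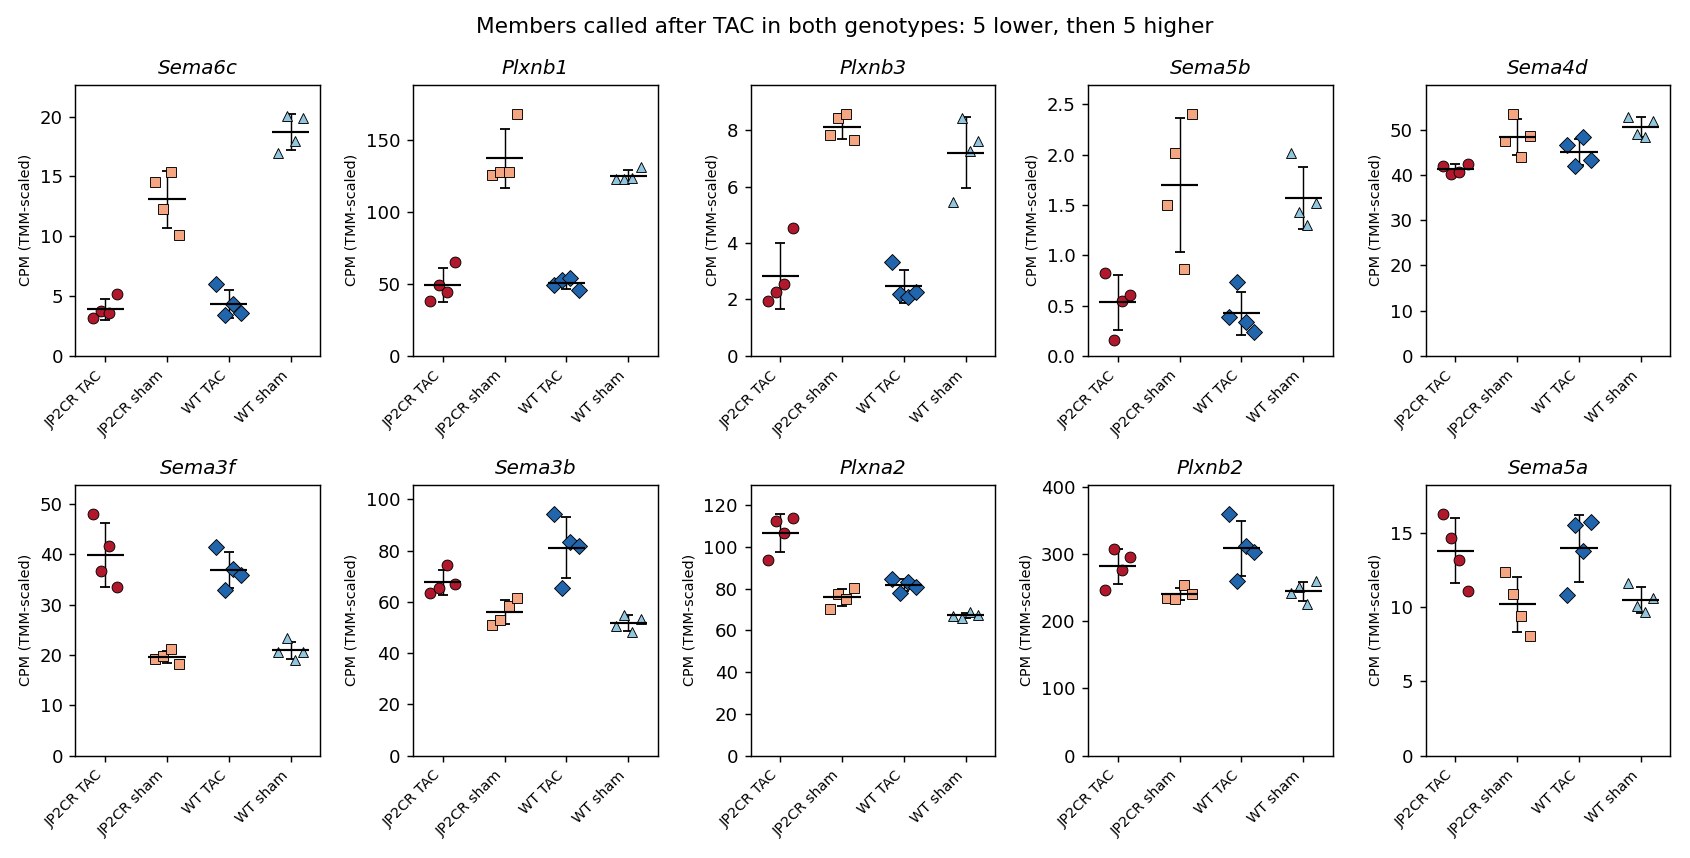
CPM per library (points), mean (bar) and SD (whisker) of the 10 members that passed the test for TAC in both genotypes, in JP2CR TAC, JP2CR sham, WT TAC and WT sham (n = 4 each, linear axes from 0). Plxnb1, Plxnb3, Sema6c and Sema5b show TAC libraries below every sham library in both genotypes, and Sema3f shows the reverse.

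Markers of several cell types changed with TAC as well. Nerve and Schwann cell markers summed to 26.5 to 31.3 CPM in JP2CR TAC, 37.9 to 56.0 in JP2CR sham, 21.1 to 29.5 in WT TAC and 45.9 to 59.8 in WT sham. Of the 7 tested, 5 fell in JP2CR and 6 in WT. Of all genes, 20.7% were lower in JP2CR and 20.8% in WT, which also stands beside the counts of the lists below. Atrial markers without Nppa summed to 475 to 732 CPM in JP2CR TAC, 216 to 2379 in JP2CR sham, 132 to 372 in WT TAC and 1538 to 2494 in WT sham. Of 10 atrial markers tested, 4 fell in JP2CR, and 9 fell and 1 rose in WT. JP2CR sham 4 had the lowest atrial and nerve sums of the 8 sham libraries, 216 and 37.9 CPM. Among them it had the highest Plxnb1 level, 168 CPM, and the lowest Sema6c level, 10.1 CPM. Cardiomyocyte markers also fell, 6 of 8 in each genotype, with medians of -0.37 in JP2CR and -0.33 in WT on the log2 scale. Smooth muscle and pericyte markers summed to 1046 to 1256 CPM in JP2CR TAC, 1479 to 1560 in JP2CR sham, 961 to 1247 in WT TAC and 1286 to 1636 in WT sham. Of these 11 markers, 5 fell and 1 rose in JP2CR, and 7 fell and 1 rose in WT. The part of the nerve, atrial, cardiomyocyte and smooth muscle markers in the falls was not tested. No marker of these 4 lists was at 0 in every library of a group. Adipocyte markers without Fabp4 summed to 2.90 to 103 CPM in JP2CR TAC, 5.77 to 275 in JP2CR sham, 0.531 to 10.3 in WT TAC and 25.4 to 239 in WT sham, with Ucp1 and Retn at 0 in WT TAC. Of 10 adipocyte markers 0 passed in JP2CR and 9 fell in WT, and their part was not tested either. Fibroblast markers were mixed: of 10, 3 rose and 3 fell in JP2CR, and 3 rose and 2 fell in WT. Of 7 mesothelial markers tested, 1 fell in JP2CR and 2 in WT.

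Among the secreted ligands, Sema3f and Sema3b rose with TAC in both genotypes. They lie near each other on chromosome 9, at chr9:107681500-107710475 and chr9:107597674-107609229 on the minus strand, 72.3 kb apart. Sema3f binds Nrp2 and repels axons and endothelial cells. It measured 48.0, 36.7, 41.6 and 33.4 CPM in JP2CR TAC, against 19.1, 19.8, 21.2 and 18.2 CPM in JP2CR sham. WT TAC libraries had 41.5, 32.9, 37.1 and 35.9 CPM, against 20.6, 23.3, 19.1 and 20.5 CPM in WT sham. Every TAC library exceeded every sham library by a wide margin. The rise was 2.03-fold in JP2CR (1.02 ± 0.10, adjusted p = 8.94e-07) and 1.76-fold in WT (0.82 ± 0.10, adjusted p = 6.06e-06). Sema3b measured 63.4, 65.6, 74.5 and 67.0 CPM in JP2CR TAC, against 51.1, 53.1, 58.5 and 61.5 CPM in JP2CR sham (0.27 ± 0.09, adjusted p = 0.0241). In WT it measured 94.4, 65.5, 83.3 and 81.7 CPM after TAC, against 50.4, 55.1, 48.4 and 53.3 CPM after sham (0.65 ± 0.09, adjusted p = 2.23e-05). The JP2CR groups of Sema3b lay close, and their call was lost in 6 of 28 other settings. The difference between the Sema3b effects, -0.37 ± 0.13, did not pass (adjusted p = 0.283).

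The receptors Plxna2 and Plxnb2 and the transmembrane ligand Sema5a rose in both genotypes. Plxna2 (chr1:194618218-194816869, plus strand), a receptor of class 6 semaphorins and, with neuropilins, of class 3, measured 93.6, 113, 107 and 114 CPM in JP2CR TAC, against 70.5, 77.6, 74.9 and 80.4 CPM in JP2CR sham (0.49 ± 0.06, adjusted p = 5.88e-06). It measured 84.8, 78.1, 83.1 and 80.6 CPM in WT TAC, against 66.9, 66.1, 68.6 and 67.3 CPM in WT sham (0.28 ± 0.06, adjusted p = 0.00114). The groups were apart in both genotypes. Plxnb2 measured 247, 308, 277 and 297 CPM in JP2CR TAC, against 234, 234, 254 and 241 CPM in JP2CR sham (0.23 ± 0.08, adjusted p = 0.0353). It measured 361, 260, 312 and 303 CPM in WT TAC, against 242, 252, 226 and 260 CPM in WT sham (0.34 ± 0.08, adjusted p = 0.00341). Its libraries overlapped in both genotypes, in WT narrowly (lowest TAC library 259.67 CPM, highest sham library 259.70 CPM). The JP2CR call was lost in 11 of 28 other settings. Plxnb2 rose where Plxnb1 and Plxnb3 fell. Sema5a, a ligand of Plxnb3, measured 16.3, 14.7, 13.2 and 11.1 CPM in JP2CR TAC, against 12.4, 10.9, 9.44 and 8.05 CPM in JP2CR sham (0.43 ± 0.15, adjusted p = 0.0248). It measured 10.8, 15.5, 13.8 and 15.7 CPM in WT TAC, against 11.7, 10.1, 9.69 and 10.6 CPM in WT sham (0.42 ± 0.14, adjusted p = 0.0274). Both pairs of Sema5a groups overlapped, and its call was lost in 8 of 28 other settings in JP2CR and 7 in WT.

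In JP2CR, 5 further members passed the test that did not pass in WT. None of the differences between genotypes passed for them, so they are not shown to be particular to JP2CR. Sema3d, a class 3 ligand that guides venous endothelium in mouse embryos, measured 8.98, 10.1, 8.42 and 8.62 CPM in JP2CR TAC, against 4.71, 5.49, 6.04 and 5.23 CPM in JP2CR sham (0.74 ± 0.13, adjusted p = 0.00019). In WT it measured 7.67, 8.10, 7.12 and 7.15 CPM after TAC, against 6.38, 6.40, 7.41 and 4.71 CPM after sham (0.28 ± 0.13, adjusted p = 0.0905). The JP2CR groups lay apart and the WT groups overlapped. Without WT sham 3, the WT rise of Sema3d passed (0.365, adjusted p = 0.037). Sema7a, a ligand of plexin C1 and of beta 1 integrins, measured 60.5, 89.7, 75.7 and 77.9 CPM in JP2CR TAC, against 51.0, 45.4, 45.8 and 60.4 CPM in JP2CR sham (0.59 ± 0.11, adjusted p = 0.000398). It measured 70.8, 56.2, 63.1 and 54.8 CPM in WT TAC, against 48.7, 53.3, 51.5 and 51.6 CPM in WT sham (0.25 ± 0.11, adjusted p = 0.073). All TAC libraries of Sema7a were above all sham libraries of the same genotype, though JP2CR TAC 1 at 60.5 CPM barely cleared JP2CR sham 4 at 60.4 CPM. The WT rise of Sema7a passed in a fit of only the WT groups (0.26, adjusted p = 0.0117). It also passed without JP2CR TAC 1 (adjusted p = 0.0369), and the authors' deposited table gives it an adjusted p of 0.0076 in WT.

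The 3 members that fell in JP2CR and did not pass in WT were Plxna1, Sema6a and Sema4b. Plxna1, a receptor of class 3 semaphorins and of Sema6d, measured 63.7, 66.5, 61.7 and 66.7 CPM in JP2CR TAC, against 87.9, 75.9, 79.5 and 81.2 CPM in JP2CR sham (-0.33 ± 0.07, adjusted p = 0.000902). WT TAC libraries had 73.6, 79.9, 77.8 and 68.7 CPM, against 68.6, 84.2, 76.0 and 82.1 CPM in WT sham (-0.05 ± 0.07, adjusted p = 0.567). The JP2CR groups of Plxna1 were clear of each other and the WT groups were mixed. Of its exon length, 10.7% overlaps Gm26811 on the opposite strand. Sema6a, a ligand of Plxna2 and Plxna4, measured 24.1, 24.1, 21.2 and 24.5 CPM in JP2CR TAC, against 29.5, 30.2, 25.8 and 26.2 CPM in JP2CR sham (-0.25 ± 0.07, adjusted p = 0.0106). WT TAC libraries had 29.6, 34.0, 31.9 and 30.3 CPM, against 34.8, 30.8, 31.3 and 33.3 CPM in WT sham (-0.05 ± 0.07, adjusted p = 0.618). For Sema6a too the JP2CR groups were apart and the WT groups overlapped. Sema4b, a transmembrane semaphorin, had 13.7, 12.6, 13.6 and 14.8 CPM in JP2CR TAC, against 13.4, 14.0, 21.6 and 22.0 CPM in JP2CR sham (-0.37 ± 0.14, adjusted p = 0.0437). Both high JP2CR sham libraries of Sema4b were those with Xist. Without the 3 libraries with Xist its log2 fold change was -0.04 (adjusted p = 0.828), and the call was lost in 17 of 28 other settings, limma voom among them. WT TAC libraries of Sema4b had 14.6, 11.4, 11.6 and 12.2 CPM, against 13.9, 15.9, 15.8 and 16.3 CPM in WT sham (-0.32 ± 0.14, adjusted p = 0.084). The WT groups overlapped, and the WT difference passed in a fit of only the WT groups (adjusted p = 0.016) and without the libraries with Xist (-0.32, adjusted p = 0.00667).

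Plxna3, Sema4a and Sema3c passed in WT and not in JP2CR. Plxna3, a receptor of class 3 semaphorins with neuropilin, measured 4.80, 4.12, 3.69 and 4.26 CPM in WT TAC, against 3.19, 2.92, 2.52 and 3.53 CPM in WT sham (0.47 ± 0.15, adjusted p = 0.0166). Sema4a, a transmembrane semaphorin with roles in immune cells, measured 3.49, 5.78, 6.79 and 6.18 CPM in WT TAC, against 7.30, 7.58, 8.06 and 7.41 CPM in WT sham (-0.45 ± 0.16, adjusted p = 0.0303). Sema3c, needed for septation of the outflow tract in mouse embryos, measured 22.9, 20.4, 22.8 and 22.1 CPM in WT TAC, against 23.9, 26.1, 25.5 and 24.4 CPM in WT sham (-0.18 ± 0.07, adjusted p = 0.0364). The WT groups of these 3 genes did not overlap. Without WT TAC 1, the Sema4a log2 fold change was -0.28 and its adjusted p 0.0869. Of 28 other settings, the WT call was lost in 8 for Sema3c, DESeq2 among them (adjusted p up to 0.117), in 5 for Sema4a and in 3 for Plxna3. In JP2CR the log2 fold changes were 0.11 ± 0.15 for Plxna3 (adjusted p = 0.624), 0.07 ± 0.16 for Sema4a (adjusted p = 0.77) and 0.16 ± 0.07 for Sema3c (adjusted p = 0.059). JP2CR libraries of Sema3c had 23.6, 24.6, 24.1 and 23.1 CPM after TAC, against 22.7, 22.6, 21.0 and 18.6 CPM after sham. Those groups were also apart, in the opposite direction to WT. The JP2CR rise of Sema3c passed without JP2CR sham 1 (0.21, adjusted p = 0.0322) and without JP2CR sham 2 (0.19, adjusted p = 0.0435).

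**Figure D4:**
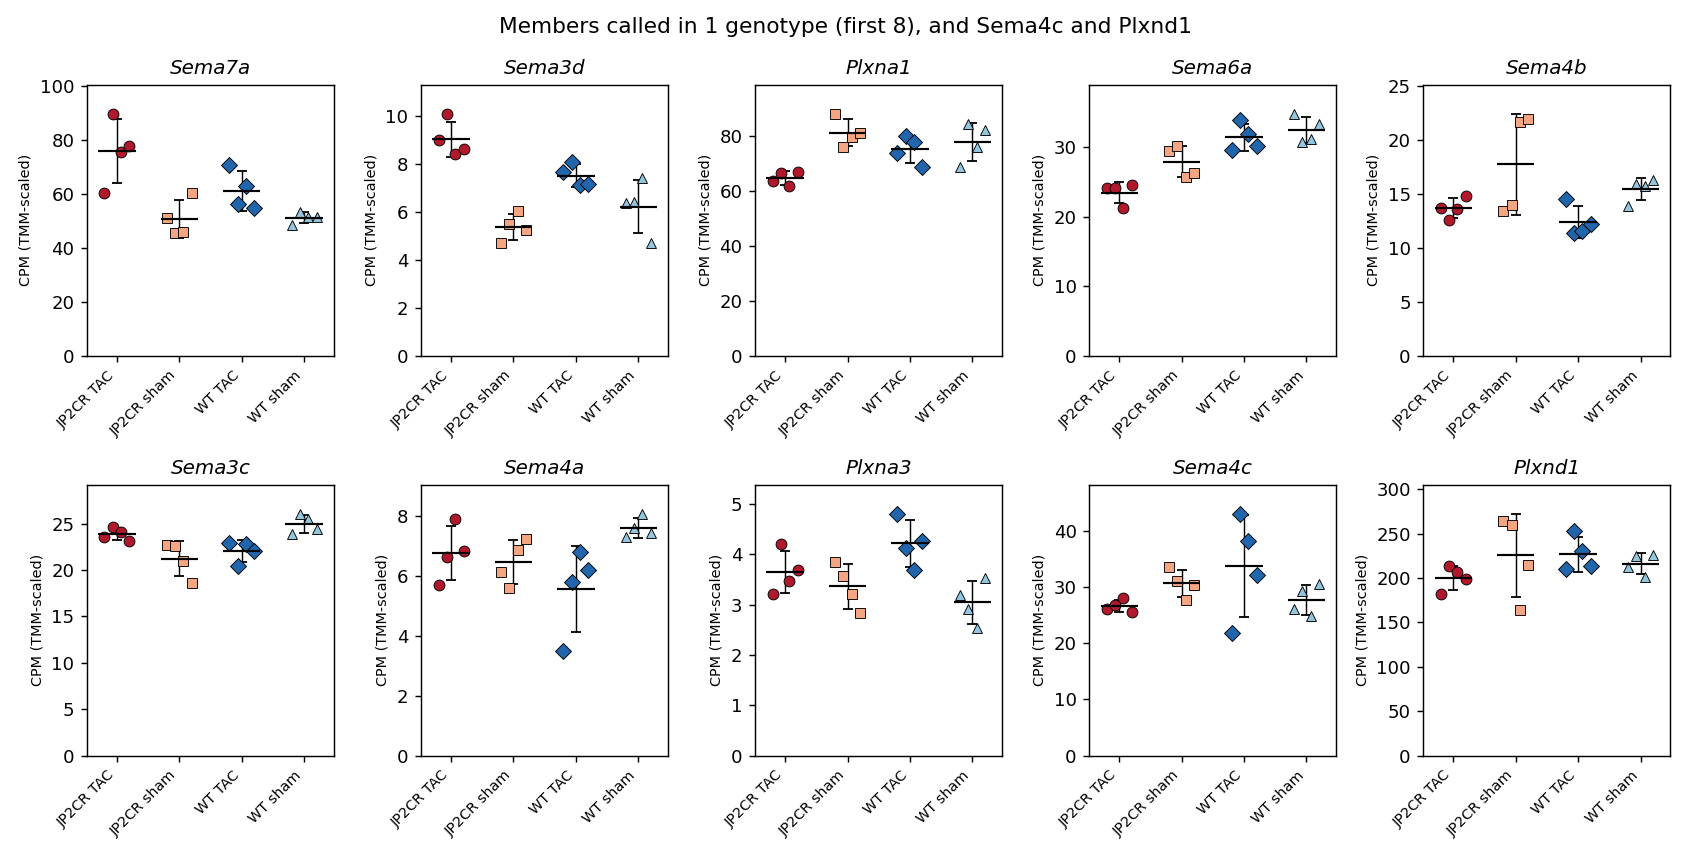
CPM per library (points), mean (bar) and SD (whisker) of the 8 members that passed the test for TAC in 1 genotype, and of Sema4c and Plxnd1, in JP2CR TAC, JP2CR sham, WT TAC and WT sham (n = 4 each, linear axes from 0). Sema4b is high in 2 of 4 JP2CR sham libraries, at 21.6 and 22.0 CPM, and Sema4c in WT TAC spreads from 21.8 to 43.0 CPM.

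Neither neuropilin passed the test for TAC. Nrp1 measured 187, 262, 228 and 231 CPM in JP2CR TAC, against 260, 269, 194 and 232 CPM in JP2CR sham (-0.07 ± 0.10, adjusted p = 0.588). It measured 257, 298, 278 and 248 CPM in WT TAC, against 255, 233, 242 and 234 CPM in WT sham (0.17 ± 0.10, adjusted p = 0.191). Libraries of both pairs of groups overlapped. Nrp2, the coreceptor of Sema3f and of VEGF-C, was at 73.6 to 87.6 CPM in JP2CR TAC, against 54.8 to 85.3 CPM in JP2CR sham (0.09 ± 0.10, adjusted p = 0.531). It was at 78.7 to 92.9 CPM in WT TAC, against 68.9 to 73.9 CPM in WT sham (0.24 ± 0.10, adjusted p = 0.0773). The WT groups of Nrp2 did not overlap. In a fit of only the WT groups its adjusted p was 0.00361, and that of Nrp1 0.0278. Endothelial markers summed to 1481 to 1564 CPM in JP2CR TAC, 1501 to 1617 in JP2CR sham, 1376 to 1582 in WT TAC and 1453 to 1501 in WT sham. Of 12 endothelial markers, 2 rose and 2 fell in JP2CR, and 0 passed in WT, beside 41.5% and 41.9% of all genes. Lymphatic endothelial markers summed to 129 to 154 CPM in JP2CR TAC, 107 to 121 in JP2CR sham, 134 to 145 in WT TAC and 98.3 to 102 in WT sham. Of 6 tested (Ccl21a was at 0), 3 rose in JP2CR and 5 in WT, beside 20.7% and 21.1% of all genes higher. Their part in the Nrp2 values was not tested.

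Of the remaining members, none passed for TAC in either genotype with edgeR and all 16 libraries. Plxnd1 measured 182, 214, 207 and 199 CPM in JP2CR TAC, against 264, 260, 164 and 215 CPM in JP2CR sham (-0.17 ± 0.11, adjusted p = 0.233). JP2CR sham 3, a library with Xist, was the lowest of its group. Without it Plxnd1 was lower in JP2CR TAC (-0.29, adjusted p = 0.00754), as it was without the 3 libraries with Xist (-0.38, adjusted p = 0.0018). Plxnd1 was at 210 to 253 CPM in WT TAC, against 202 to 226 CPM in WT sham (0.07 ± 0.11, adjusted p = 0.658). Sema6b, a ligand of Plxna4, had a log2 fold change of 0.41 ± 0.16 in JP2CR (adjusted p = 0.0535), with 14.2 to 18.6 CPM after TAC, against 9.63 to 14.4 CPM after sham. Other tools called it, with an adjusted p of 0.0446 in DESeq2 and 0.0353 in limma voom. The authors' deposited table gives Sema6b an adjusted p of 0.0212 in JP2CR. Sema4c, a ligand of Plxnb2, had 21.8, 43.0, 38.1 and 32.0 CPM in WT TAC, against 26.1, 29.3, 24.8 and 30.5 CPM in WT sham (0.29 ± 0.14, adjusted p = 0.112). WT TAC 1 was the lowest of all 16 Sema4c libraries. The other members that did not pass were Plxna4, Plxnc1, Sema3a, Sema3g, Sema4f and Sema6d, whose log2 fold changes ran from -0.54 (Sema4f in WT) to 0.16 (Sema6d in WT). Without the 3 libraries with Xist, a pair of them passed in JP2CR. Sema3g was then higher by 0.39 (adjusted p = 0.00351), beside 0.06 with all libraries, and Sema6d had a log2 fold change of -0.28 (adjusted p = 0.0112), beside -0.05.

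No member passed the test of the difference between the TAC effects of the genotypes. In this interaction 0 of 29 members passed with edgeR, against 0.118% of all genes (0.0887% higher and 0.0296% lower). An unadjusted p under 0.05 was found for 8 members, and the share of all genes at that threshold was not counted. DESeq2 and limma voom also called 0. The smallest adjusted p was 0.156, for Sema3c (0.34 ± 0.09 on the log2 scale). The largest of the 8 estimates were 0.52 ± 0.23 for Sema4a (adjusted p = 0.421), -0.49 ± 0.20 for Sema4c (adjusted p = 0.378) and 0.47 ± 0.18 for Sema3d (adjusted p = 0.353). For Plxnb1 the estimate was -0.17 ± 0.18 (adjusted p = 0.803), for Plxnb3 0.04 ± 0.31 (adjusted p = 0.977) and for Sema6c 0.37 ± 0.25 (adjusted p = 0.667). The result depended on libraries. Without the 3 libraries with Xist, Sema6d, a ligand of Plxna1, and Plxnd1 passed, with differences of -0.43 (adjusted p = 0.0281) and -0.44 (adjusted p = 0.031). Without WT TAC 1, Sema4c passed (-0.65, adjusted p = 0.0433).

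After sham surgery no member passed the test between genotypes. In JP2CR sham against WT sham 0 of 29 passed with edgeR, against 0.0961% of all genes, and DESeq2 and limma voom called 0. An unadjusted p under 0.05, not counted over all genes, was found for 5 members. The smallest adjusted p was 0.314, for Sema3c (-0.23 ± 0.07). The sham groups did not overlap for 5 of 29 members (17.2%), 1 higher and 4 lower in JP2CR, beside 4.76% of all genes. Plxna2 was the higher one, at 70.5 to 80.4 CPM in JP2CR sham, against 66.1 to 68.6 CPM in WT sham (0.17 ± 0.06, adjusted p = 0.427).

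After TAC, Plxna2 and Sema6a differed between genotypes. In JP2CR TAC against WT TAC 2 of 29 members (6.90%) passed, against 0.651% of all genes (0.362% higher and 0.288% lower). An unadjusted p under 0.05, again not counted over all genes, was found for 10 members. Plxna2 was 1.31-fold higher in JP2CR TAC, at 93.6 to 114 CPM, against 78.1 to 84.8 CPM in WT TAC (0.39 ± 0.06, adjusted p = 0.0103). Sema6a, which binds Plxna2, was lower, at 21.2 to 24.5 CPM in JP2CR TAC, against 29.6 to 34.0 CPM in WT TAC (-0.42 ± 0.07, adjusted p = 0.0182). The libraries of the groups did not overlap for either gene, as for 7 of 29 members (24.1%), beside 8.09% of all genes. Without WT TAC 3 and JP2CR TAC 3, neither passed, and the adjusted p of Plxna2 was 0.122. The Sema6a call was also lost without WT TAC 2 (adjusted p = 0.0744), without WT TAC 3 (0.0726) and without JP2CR TAC 3 (0.0725). The difference of the TAC effects did not pass for Plxna2 (0.21 ± 0.08, adjusted p = 0.368) or Sema6a (-0.20 ± 0.10, adjusted p = 0.52).

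**Figure D5:**
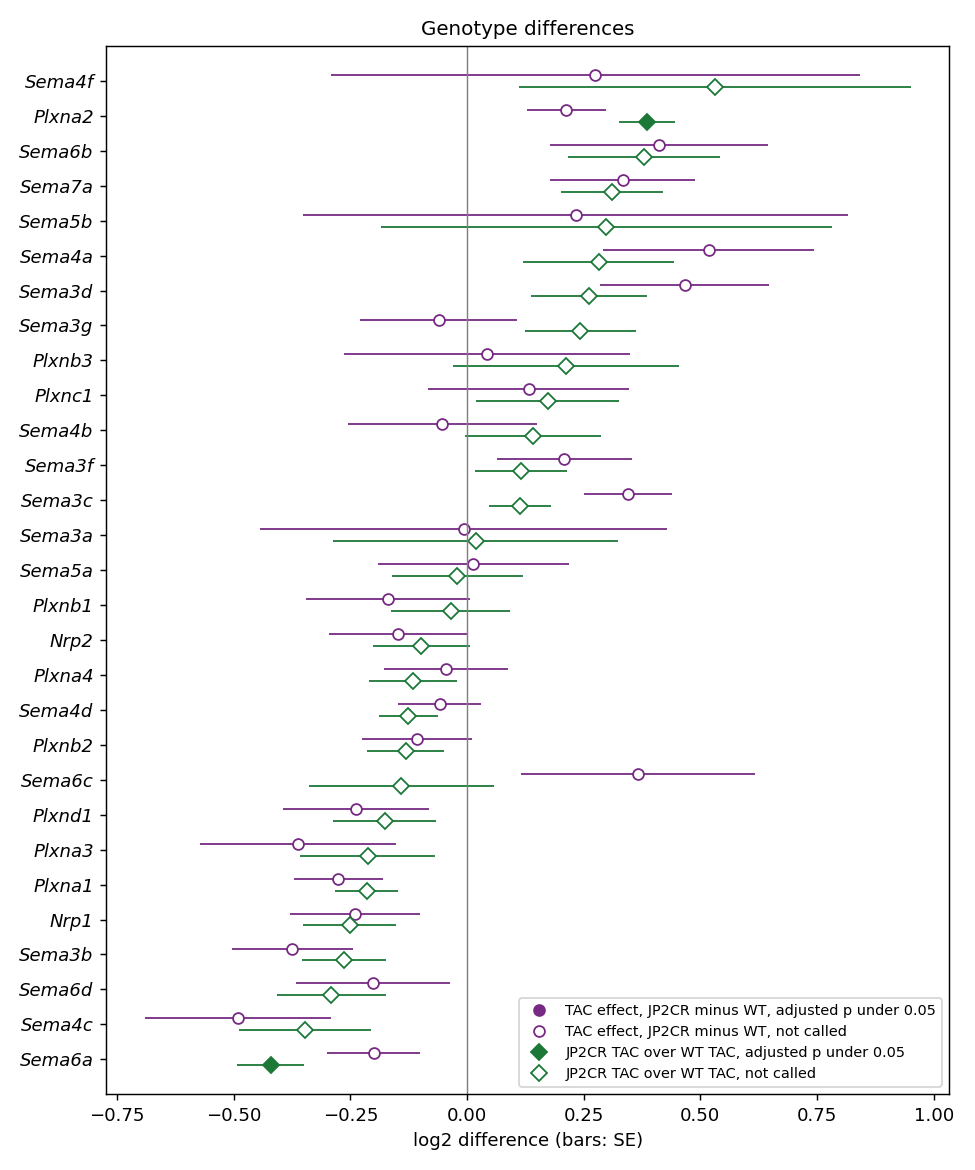
Log2 differences with standard errors of the 29 tested members for JP2CR over WT after TAC and for the difference of the TAC effects (n = 4 libraries per group). After TAC, Plxna2 at 0.39 and Sema6a at -0.42 passed the test, and no member passed for the difference of the TAC effects.

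Partners of the family that changed were mostly higher with TAC. Of 13 tested coreceptors and binding partners, 7 rose and 1 fell in JP2CR and 6 rose and 2 fell in WT, with medians of 0.31 and 0.21 on the log2 scale. Of all genes, 20.7% were higher and 20.7% lower in JP2CR, and 21.1% higher and 20.8% lower in WT. Met, the hepatocyte growth factor receptor that associates with plexin B1, had log2 fold changes of 1.46 ± 0.19 in JP2CR (adjusted p = 9.35e-06) and 1.6 ± 0.18 in WT (adjusted p = 2.21e-06). The immune receptor Cd72, which binds Sema4d, rose by 0.88 ± 0.25 in JP2CR (adjusted p = 0.0105) and 1.58 ± 0.24 in WT (adjusted p = 5.37e-05). L1cam, an adhesion molecule that binds Nrp1, fell by 1.06 in WT (SE 0.19, adjusted p = 0.000194), with a log2 fold change of -0.32 ± 0.18 in JP2CR (adjusted p = 0.18). Tyrobp, the adaptor of a plexin A1 complex in mouse immune cells, rose by 0.72 ± 0.11 in JP2CR (adjusted p = 4.69e-05) and 0.43 ± 0.11 in WT (adjusted p = 0.00387). Itgb1, the beta 1 integrin bound by Sema7a, rose by 0.31 ± 0.06 in JP2CR (adjusted p = 0.000426) and 0.28 ± 0.06 in WT (adjusted p = 0.00093). Macrophage markers rose beside these immune partners, with sums of 528 to 616 CPM in JP2CR TAC, 365 to 449 in JP2CR sham, 466 to 516 in WT TAC and 356 to 393 in WT sham. Of 12 macrophage markers, 9 rose in each genotype and 1 fell in WT. Lymphocyte markers summed to 6.62 to 38.8 CPM in JP2CR TAC, 3.95 to 7.22 in JP2CR sham, 5.71 to 8.68 in WT TAC and 6.40 to 6.68 in WT sham. JP2CR TAC 1 and 3 stood apart at 38.8 and 21.3 CPM, and of the 4 lymphocyte markers tested 4 rose in JP2CR and 0 passed in WT. The part of both lists was not tested.

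Inside the cell, 17 of 35 tested genes of plexin signalling rose and 1 fell in JP2CR, and 17 rose and 3 fell in WT, with medians of 0.19 and 0.22. In all, 51.4% passed in JP2CR and 57.1% in WT, beside 41.5% and 41.9% of all genes. By direction, all genes had 20.7% higher and 20.7% lower in JP2CR, and 21.1% higher and 20.8% lower in WT. Arhgef12, one of the exchange factors through which plexin B1 activates RhoA, rose by 0.44 ± 0.05 in JP2CR (adjusted p = 2.84e-06) and 0.52 ± 0.05 in WT (adjusted p = 3.26e-07). Arhgef11, the other, had log2 fold changes of -0.14 ± 0.06 in JP2CR (adjusted p = 0.0639) and -0.10 ± 0.06 in WT (adjusted p = 0.204). Dpysl3, a collapsin response mediator protein, rose by 0.68 ± 0.08 in JP2CR (adjusted p = 6.95e-06) and 0.90 ± 0.08 in WT (adjusted p = 2.46e-07). Mical3, of the oxidoreductase family that acts on actin downstream of plexin A, rose by 0.41 ± 0.06 in JP2CR (adjusted p = 4.76e-05) and 0.76 ± 0.06 in WT (adjusted p = 5.26e-08). Of 7 semaphorin-cleaving proteases, 1 rose and 1 fell in JP2CR and 2 rose and 1 fell in WT, which is 28.6% and 42.9%, beside 41.5% and 41.9% of all genes. Among them Pcsk6 fell in both genotypes, with log2 fold changes of -0.60 ± 0.14 in JP2CR (adjusted p = 0.00278) and -0.38 ± 0.14 in WT (adjusted p = 0.0407), where the call was lost in 9 of 28 other settings. Adam10, a membrane sheddase, rose by 0.27 ± 0.09 in JP2CR (adjusted p = 0.0186) and 0.25 ± 0.09 in WT (adjusted p = 0.0283), calls lost in 7 and 6 of 28 other settings. Mmp14, a membrane-bound metalloproteinase, rose by 0.69 ± 0.21 in WT (adjusted p = 0.0139), with 0.45 ± 0.21 in JP2CR (adjusted p = 0.102).

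The VEGF ligands that share neuropilins were mixed, and 5 were tested. In JP2CR 1 rose and 2 fell, and in WT 2 rose and 2 fell, beside 41.5% and 41.9% of all genes changed in either direction. Vegfa averaged 404 CPM in JP2CR TAC, 520 CPM in JP2CR sham, 499 CPM in WT TAC and 428 CPM in WT sham, so it fell in JP2CR (-0.36 ± 0.07, adjusted p = 0.000389) and rose in WT (0.22 ± 0.07, adjusted p = 0.0135). This difference passed the interaction test with all libraries (-0.59 ± 0.10, adjusted p = 0.0256). That call was lost in 9 of the 16 fits that leave out 1 library (adjusted p up to 0.0881) and without WT TAC 3 and JP2CR TAC 3 (-0.57, adjusted p = 0.177). Vegfb fell in both genotypes, by 0.32 in JP2CR (SE 0.05, adjusted p = 8.81e-05) and by 0.31 in WT (SE 0.05, adjusted p = 0.000121). In JP2CR Figf, which encodes VEGF-D, rose by 0.73 ± 0.21 (adjusted p = 0.00974), with 0.04 ± 0.21 in WT (adjusted p = 0.905). In WT Vegfc, a lymphatic growth factor, rose by 0.47 ± 0.10 (adjusted p = 0.00118) and Pgf, placental growth factor, fell by 0.71 (SE 0.13, adjusted p = 0.000286). In JP2CR their log2 fold changes were 0.08 ± 0.10 (adjusted p = 0.6) and -0.25 ± 0.13 (adjusted p = 0.129). The interaction did not pass for Figf, Vegfc or Pgf.

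Of 29 tested ligands and receptors of other guidance systems, 3 rose and 10 fell in JP2CR and 1 rose and 10 fell in WT, with medians of -0.17 and -0.20. In either direction these are 44.8% and 37.9%, beside 41.5% and 41.9% of all genes. By direction, 20.7% of all genes were higher and 20.7% lower in JP2CR, and 21.1% higher and 20.8% lower in WT. Efnb3, a transmembrane ephrin, had log2 fold changes of -0.93 ± 0.12 in JP2CR (adjusted p = 7.83e-06) and -1.16 ± 0.12 in WT (adjusted p = 5.01e-07). Neo1, a receptor of netrins and repulsive guidance molecules, had -0.58 ± 0.08 in JP2CR (adjusted p = 1.83e-05) and -0.53 ± 0.08 in WT (adjusted p = 3.64e-05). Epha2, an ephrin receptor, rose by 0.56 ± 0.09 in JP2CR (adjusted p = 7.2e-05), with 0.01 ± 0.09 in WT (adjusted p = 0.994), and the difference did not pass the interaction test (adjusted p = 0.0705). Rgma, a repulsive guidance molecule, fell by 0.41 in JP2CR (SE 0.11, adjusted p = 0.00502) and by 0.67 in WT (SE 0.11, adjusted p = 6.81e-05). Nerve and Schwann cell markers, whose sums are given above, also fell with TAC, and their part in these values was not tested.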

How the data were processed

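Stranded libraries of polyadenylated ventricle RNA were sequenced, per the labels' protocols. Raw read counts per gene, as deposited by the authors, were analysed. The authors also deposited a log2 fold change and an adjusted p-value per gene for TAC in each genotype, quoted only where their table is named. The submitters' processing notes name STAR 2.5.0b, Cufflinks 2.2.1, bedtools 2.17.0, Picard 1.128, FastQC 1.0.0, DESeq2 1.6.3 and the mm10 build. What each did, the counter, its strand setting and the annotation are not given in the sources here. Of 24421 entries 5817 held 0 counts in every library and 27 had symbols turned into dates.

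The main test was that of edgeR 4.0.16 under R 4.3.3 (filterByExpr per group, TMM factors, a mean per group over all 16 libraries, quasi-likelihood F test, Benjamini-Hochberg over 13522 genes, adjusted p under 0.05). The standard error is the size of the log2 fold change divided by the square root of F. The fit was tested on simulated counts. Exon lengths and gene positions came from GENCODE M21 and promoters from RefSeq. Members, lists and the naming rule were chosen with earlier results of these data known. Values per library are printed for every member called in a comparison, and for partner lists the called genes with the smallest p. Alternatives were DESeq2 1.42.0, limma 3.58.1 voom, other scaling factors and filters, only the groups compared, a replicate block, an adjusted p under 0.01 and each library left out. Fits that drop the libraries with Xist, the intermediate TAC libraries, or all 5 were added after the data were seen. Figures were drawn with matplotlib 3.10.9.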

Additional observations from a re-analysis of the deposited data

Results flagged for a closer look

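In 4 of 124 groups of 4 libraries, 1 library lay far from the other 3 relative to the range of its group, and chance alone flags about 1 group in 20. Sema6a was at 21.2 CPM in JP2CR TAC 3, where the next library had 24.1 CPM. Plxnb3 was at 3.33 CPM in WT TAC 1, where the next had 2.25 CPM. Plxnb1 was at 168 CPM in JP2CR sham 4, where the next had 128 CPM, and at 131 CPM in WT sham 4, where the next had 123 CPM. In both sham groups the distant library of Plxnb1 was on the side away from TAC. JP2CR sham 4 is one of the libraries with Xist.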

How the results depend on the processing

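Across 28 alternatives, 3892 of 4018 values of single members kept their side of the threshold, 86 lost a call, 40 gained one and 0 changed sign while called. A sign change of a value that neither fit calls is counted as kept. Of 30 calls, 18 held in every alternative: 10 of 15 for TAC in JP2CR, 8 of 13 in WT and 0 of 2 for genotype after TAC. In a fit of only the groups compared, 10 members were higher in WT TAC, against 6, beside 3142 of 13175 genes. At an adjusted p under 0.01, 4 were higher in JP2CR TAC, 4 lower in WT TAC, and 0 higher and 0 lower in JP2CR TAC against WT TAC. At that threshold 1921 of 13522 genes were higher in JP2CR TAC and 1978 lower in WT TAC. Without the 3 libraries with Xist, 2 members were lower in the interaction (Sema6d, Plxnd1) and 2 lower in JP2CR TAC against WT TAC (Sema6a, Sema6d). Of 13740 genes in that fit, 159 and 150 were lower in these comparisons. Without the 2 intermediate TAC libraries, and without all 5, 0 were higher and 0 lower between the genotypes after TAC. The causes were not tested.

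Leaving out 1 library at a time gave 5 to 8 members higher and 7 to 8 lower for TAC in JP2CR, and 5 to 7 higher and 4 to 8 lower in WT, with 4 lower without WT sham 2. It gave 0 to 1 lower in the interaction, and 1 to 1 higher and 0 to 2 lower between genotypes after TAC. Over all genes, these fits called 4844 to 5643 for TAC in JP2CR and 4992 to 5981 in WT. Without WT TAC 1, Sema4c passed for TAC in WT (0.45, adjusted p = 0.00138) and between genotypes after TAC (-0.51, adjusted p = 0.0229).

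The replicate numbers do not pair the libraries: of 24 same-numbered pairs 1 had a correlation over 0.1 (range -0.187 to 0.108), and 2 of 16 libraries correlated best with their own number. With the replicate block, 6 members were higher and 8 lower in JP2CR TAC, 6 higher and 6 lower in WT TAC, and 1 higher and 1 lower in JP2CR TAC against WT TAC. Over 13522 genes the block gave 2770 higher and 2720 lower, 2766 and 2751, and 47 and 30 in the same order.

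Over all genes, 16 passed the interaction, against 133 with DESeq2, 39 with no filter, 9 with the replicate block, 0 at an adjusted p under 0.01, 372 without the libraries with Xist, 0 without the intermediate ones, 59 without all 5, and 2 to 120 with 1 library left out. After sham, 13 passed between genotypes, against 52, 25, 22, 2, 64, 6 and 22 in the same order, and 5 to 28. After TAC, 88 passed, against 232 with DESeq2, 157 with only the groups compared, 5 at an adjusted p under 0.01, 378, 4 and 19 without those libraries, and 8 to 246. Calls on Sema5b and Plxnb3, and the tests of Sema4f, which was not called, rest on low counts. Sema3e and Sema4g were too low to test with all libraries. Where they had enough counts in another fit they are in its count of members. Sema4g was then lower in JP2CR TAC with no filter (-1.52, adjusted p = 0.0476) and Sema3e lower in WT TAC without WT TAC 1 (-1.98, adjusted p = 0.00708).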
